A study of Mus musculus with 4 samples.

Results

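A set of 10 genes of the response to low oxygen and of sugar breakdown was followed in the fetal mouse limb, taken by the symbols *Pgk1*, *Ldha*, *Aldoa*, *Slc2a1*, *Vegfa*, *Bnip3*, *Egln3*, *Ndufa4l2*, *Ankrd37* and *Hif1a*, out of 32288 features counted. All 10 were found, and all 10 passed the filter on low counts in every comparison. The symbol *Aldoa* is carried by 2 identifiers. ENSMUSG00000030695 was used, and the other, with 17 UMIs in all, was kept apart.

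Cells came from hindlimbs (femur and tibia) of E14.5 embryos in 4 single-cell libraries, in which a unique molecular identifier (UMI) stands for 1 captured transcript. All embryos carried *Gli1CreER/+*, *R26LSL-tdTom/+* and *TigreTRE-p21/+*, and all received doxycycline from E12.5 (1 mg/ml in the water, and in the food) and tamoxifen at E13.5 (120 µg/g). Embryos that also carried *Col2a1-rtTA*, which turns on the p21 transgene in *Col2a1*-expressing cartilage under doxycycline, are Pan-Cart-p21MOE, and those without it are controls. Expression of the transgene is mosaic, so p21-positive and p21-negative chondrocytes sit side by side and were not separated here. Tamoxifen labelled cells of the *Gli1* lineage with tdTomato, and cells were sorted into tdT+ (libraries S1 and S3) and tdT- (S2 and S4) fractions. Following the study's methods, each library mixed the conditions, which differ in sex within it: in S1 and S2 the Pan-Cart-p21MOE cells were male and the controls female, and in S3 and S4 the reverse. Splitting the 4 libraries by cell sex gave 4 values per condition, which stand for 2 embryo pools per condition, since both fractions of a pool come from the same embryos. The study's text and methods differ on the size of these pools, and the Pan-Cart-p21MOE cells of S3 and S4 may come from a single embryo.

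Cartilage has no blood vessels, and its cells work at low oxygen tension. The factor HIF-1, made of the alpha subunit encoded by *Hif1a* and a partner encoded by *Arnt*, is stabilised when oxygen is low, because prolyl hydroxylases such as the product of *Egln3* then no longer mark the alpha subunit for destruction. HIF-1 turns on glucose uptake and glycolysis, and in growth plate chondrocytes it is known as a survival factor. Of the 10 genes, *Slc2a1* encodes the glucose transporter GLUT1, and *Aldoa* and *Pgk1* encode glycolytic enzymes. *Ldha* encodes the lactate dehydrogenase subunit that favours lactate production. *Bnip3* (mitophagy) and *Ndufa4l2* (a mitochondrial protein that restrains respiration) act on mitochondria. *Vegfa* is the vascular growth factor secreted towards vessels, and *Ankrd37* is a small ankyrin repeat gene known as a HIF target.

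HIF binds a short core sequence, ACGTG or GCGTG, in its target genes. The 250 bases before the start of 5 of the genes are shown because these 5 had the clearest difference between cartilage and the other cells. Capitals mark ACGTG on the strand shown or its reverse complement CACGT. The sequences are from RefSeq, on build GRCm38.p6, 5′ to 3′ on the strand of the gene, and where a gene has several starts 1 that holds ACGTG is shown. *Pgk1* lies at chrX:106186850-106187099 (plus strand), *Ldha* at chr7:46845554-46845803 (plus), *Aldoa* at chr7:126799255-126799504 (minus), *Slc2a1* at chr4:119108495-119108744 (plus) and *Bnip3* at chr7:138909507-138909756 (minus).
Pgk1: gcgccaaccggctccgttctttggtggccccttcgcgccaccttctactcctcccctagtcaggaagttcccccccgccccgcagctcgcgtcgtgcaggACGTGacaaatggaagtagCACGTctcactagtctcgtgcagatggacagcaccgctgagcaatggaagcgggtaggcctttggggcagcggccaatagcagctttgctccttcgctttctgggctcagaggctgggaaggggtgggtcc
Ldha: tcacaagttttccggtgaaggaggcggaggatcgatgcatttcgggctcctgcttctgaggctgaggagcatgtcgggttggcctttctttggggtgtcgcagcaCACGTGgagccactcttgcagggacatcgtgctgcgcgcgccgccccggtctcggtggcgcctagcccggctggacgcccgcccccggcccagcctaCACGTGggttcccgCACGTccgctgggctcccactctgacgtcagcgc
Aldoa: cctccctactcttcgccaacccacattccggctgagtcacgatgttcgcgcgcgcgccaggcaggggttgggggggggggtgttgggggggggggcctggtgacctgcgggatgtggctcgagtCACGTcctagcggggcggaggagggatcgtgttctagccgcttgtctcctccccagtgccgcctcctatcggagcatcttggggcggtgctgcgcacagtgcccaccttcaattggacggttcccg
Slc2a1: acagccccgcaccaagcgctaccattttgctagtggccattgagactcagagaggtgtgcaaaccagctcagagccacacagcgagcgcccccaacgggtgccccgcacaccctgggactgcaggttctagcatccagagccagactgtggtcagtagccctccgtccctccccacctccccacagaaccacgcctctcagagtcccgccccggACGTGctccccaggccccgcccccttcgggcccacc
Bnip3: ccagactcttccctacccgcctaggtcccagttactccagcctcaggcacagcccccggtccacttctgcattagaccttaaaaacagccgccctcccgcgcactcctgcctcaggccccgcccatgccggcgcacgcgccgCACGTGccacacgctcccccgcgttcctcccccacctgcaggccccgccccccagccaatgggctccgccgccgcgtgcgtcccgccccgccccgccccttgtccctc

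In these windows *Ldha* held 3 separate stretches with ACGTG on either strand, of which 2 were the palindrome CACGTG, whose 2 strands both match. *Bnip3* held 1 such palindrome, *Pgk1* held 2 single ACGTG cores, and *Aldoa* and *Slc2a1* held 1 each. Of the capitalised cores, those nearest to a start began 34 bases (*Ldha*) and 36 bases (*Slc2a1*) before it. The GCGTG form, not capitalised, was also in the window of *Bnip3*, at 117, 99 and 35 bases before the start, and in that of *Slc2a1*, at 61. Promoter entries (250 bases before to 50 after a start) were found for 9 of the 10 genes, all but *Ndufa4l2*. ACGTG, searched on both strands, was in at least 1 promoter of 9 of these 9 genes and in 10 of their 13 promoters, 76.9%, against 19.6% of all 32851 promoters. By gene, 21.8% of 27025 genes held it. *Hif1a*, *Vegfa*, *Egln3* and *Ankrd37*, whose levels differed less between cartilage and the other cells, held ACGTG as well. The 10 genes were chosen as genes of the low oxygen response and of sugar breakdown, so their share is not independent of that choice. GCGTG, which shares its last 4 letters with ACGTG but cannot fall on the same bases of a strand, was in promoters of 5 of the 9 genes, against 35.2% of all genes. A match of 5 letters is a description of the sequence and not a binding site, and distal elements were not searched.

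After filtering 2855 cells remained, 372 to 1040 per library, with medians of 17334 to 27555 UMIs. Of these, 1066 fell in 5 chondrocyte-like clusters and 1789 in 20 others, and 1144 of the latter lay in clusters that the markers did not name. An unnamed cluster of 76 cells, all Pan-Cart-p21MOE and 98.7% from S3, had 6 of 11 chondrocyte markers raised. Another, of 13 cells, 12 of them Pan-Cart-p21MOE, had 10 of 11, and both stayed among the other cells. The 10 genes and the pathway genes described here were left out of the genes used for clustering. All 11 chondrocyte markers were higher in the chondrocyte-like clusters, where their summed level was 19677 to 25951 CPM (UMIs of a gene as a share of all UMIs, scaled to a common total) against 2858 to 5014 in the other cells. The smallest chondrocyte value rested on 921116 UMIs (Pan-Cart-p21MOE, S2), and there *Ankrd37* had 4 UMIs and *Egln3* 7, so both are imprecise. The other 8 genes had at least 35 UMIs in each chondrocyte value. Of the retained barcodes, 2 occurred in 2 libraries.

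The question of the first comparison is how the 10 genes stand in cartilage, which lacks vessels, against the other cells of the limb. The 5 genes *Bnip3*, *Pgk1*, *Slc2a1*, *Ldha* and *Aldoa* were 2.03 to 2.78 times as high in chondrocytes, with each of the 8 chondrocyte values above each of the 8 other values. *Ndufa4l2* had a mean of similar size but overlapping groups. *Hif1a*, *Vegfa*, *Egln3* and *Ankrd37* differed by 1.31-fold or less, and their groups overlapped. No gene of the 10 was lower in chondrocytes on average, except *Ankrd37* at a finer clustering. Levels are CPM scaled by the trimmed mean of M-values (TMM), ratios are on log2(CPM + 0.5) within the 8 pairs of library and condition, and no test was run because the classes come from clustering of the same cells.

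Among the glycolytic genes, *Pgk1* was 603, 724 and 925 CPM (lowest, median and highest of 8) in chondrocytes and 218, 270.2 and 377 in the other cells. The log2 ratio was 1.43 ± 0.20 (SD, n = 8 pairs). *Ldha* was 951, 1227 and 1451 CPM against 438, 569 and 643, a log2 ratio of 1.19 ± 0.14. For both, a wide gap separated the lowest chondrocyte value from the highest of the other cells, and every library and condition showed the same direction. *Aldoa* was 457, 582 and 696 CPM against 217, 287 and 412, a log2 ratio of 1.02 ± 0.17, with the narrowest gap of these 3. *Slc2a1*, the glucose transporter upstream of these enzymes, was 112, 127 and 177 CPM against 45.4, 51.6 and 58.9, a log2 ratio of 1.35 ± 0.27.

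Of the mitochondrial genes, *Bnip3* had the highest ratio of the 10. It was 90.4, 145 and 182 CPM in chondrocytes and 33.9, 52.1 and 66.7 CPM elsewhere, a log2 ratio of 1.48 ± 0.27. *Ndufa4l2* was 39.0, 59.6 and 77.7 CPM against 15.2, 27.8 and 59.9, with a log2 ratio of 1.03 ± 0.55. It was higher in chondrocytes in 8 of 8 pairs, but control cells of S2 reached 59.9 CPM outside the chondrocytes, above some chondrocyte values, and the ratio varied more between pairs than that of the 5 genes above.

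The regulators and the secreted factor differed less. *Hif1a* mRNA was 96.6, 129 and 137 CPM in chondrocytes and 87.9, 94.3 and 105 CPM elsewhere, with a log2 ratio of 0.38 ± 0.17 and 8 of 8 pairs higher. HIF-1 alpha is regulated mainly as a protein, which was not measured. *Vegfa* was 68.0, 77.8 and 91.0 CPM against 47.6, 65.6 and 81.6, a log2 ratio of 0.27 ± 0.22, and was higher in 7 of 8 pairs. *Egln3* (4.11, 7.45 and 10.0 CPM against 4.33, 6.56 and 8.52) and *Ankrd37* (4.46, 11.3 and 14.7 CPM against 5.86, 9.08 and 12.8) were near the limit of this depth. Their log2 ratios, 0.17 ± 0.49 and 0.16 ± 0.46, were smaller than their own SD.

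**Figure D1:**
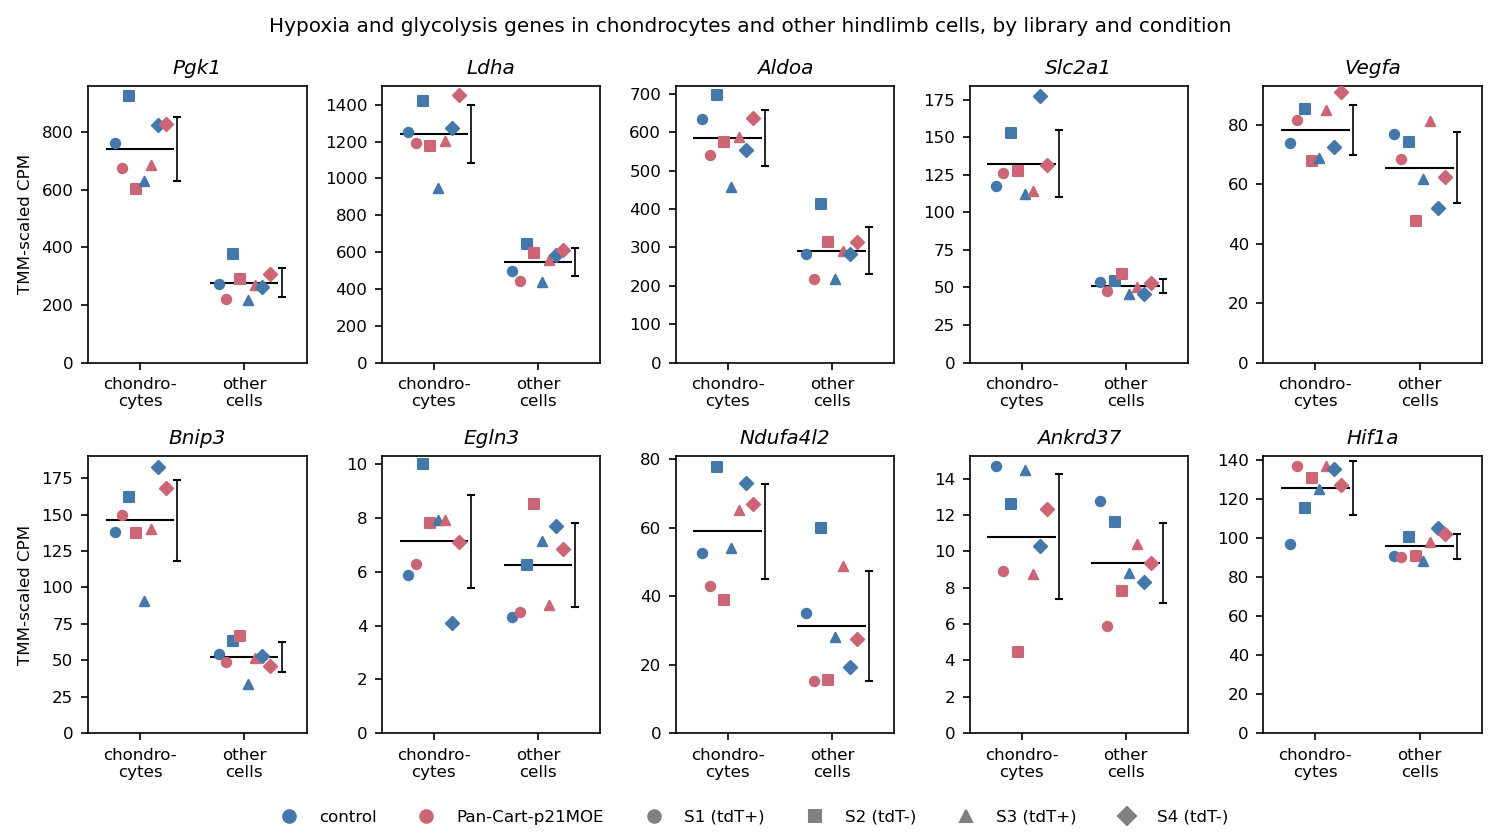
Level of each of the 10 genes (CPM, linear axis from 0) in chondrocytes and in all other cells, 1 point per library and condition (8 per class), with the mean as a line and the SD as a bar. For *Pgk1*, *Ldha*, *Aldoa*, *Slc2a1* and *Bnip3* the points of the classes are apart, and for the other 5 genes they overlap.

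Against the background of all 12673 genes tested, 8.95% had all 8 chondrocyte values above all 8 others and 8.3% had all below, with a median log2 ratio of 0.00 over all genes. Of the 10 genes, 5 were above and 0 below, with a median of 1.02. The wider pathway lists moved unequally. Of 26 glycolysis genes, 17 were above and 0 below, with a median log2 ratio of 0.79. Leaving out the 4 of them that are among the 10 genes, 13 of 22 were above, with a median of 0.76. The highest were the aldolase isozyme *Aldoc* (2.29 ± 0.50 on the log2 scale) and the lactate exporter *Slc16a3* (1.99 ± 0.32), and the lowest were *Pgm2*, a phosphoglucomutase (-0.69 ± 0.43), and *Pfkfb4*, a regulator of phosphofructokinase (-0.59 ± 0.81), both with overlapping groups.

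Of 30 genes known to be induced by hypoxia, 4 of the 10 genes included, 28 passed the filter, 12 were above and 1 below, and the median was 0.74. Without those 4, 24 of 26 passed, 11 were above and 1 below, and the median was again 0.74. *Cox4i2*, an alternative subunit of cytochrome oxidase, stood at 2.10 ± 0.36, and *P4ha2*, a collagen prolyl hydroxylase subunit, at 1.91 ± 0.11. *Angptl4*, a secreted regulator of lipoprotein lipase, was the 1 gene below (-1.86 ± 0.65), and *Mxi1* (-0.60 ± 0.50) overlapped. Of the 11 HIF subunits and oxygen sensing genes, which include *Hif1a* and *Egln3*, none was above, and the 2 partner subunit genes *Arnt2* (-0.99 ± 0.51) and *Arnt* (-0.77 ± 0.29) were below. *Epas1*, encoding HIF-2 alpha, was 0.44 ± 0.80 with overlapping groups. The median of that list was -0.16.

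Of 4 genes for receptors of VEGF 3 passed the filter, and *Nrp1* (-2.03 ± 0.64) and *Nrp2* (-1.70 ± 0.32), the neuropilin co-receptors, had all 8 values below those of the other cells. *Flt1*, a receptor proper, was -0.41 ± 1.61, with overlapping groups and 3 of 8 pairs higher in chondrocytes. The 23 oxidative phosphorylation genes were close to even, with a median of 0.04. Of these *Cox7a2* (0.48 ± 0.10) and *Atp5b* (0.27 ± 0.06) were above, and *Ndufa4* (-0.26 ± 0.20) and *Cox6c* (-0.18 ± 0.14) were the lowest. The transcripts of glycolysis and of respiration thus differed between the classes by unequal amounts.

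Limbs were digested with enzymes before capture, and genes known to respond to dissociation moved with the same classes. Of 20 such genes, 11 had all chondrocyte values above all others and 0 below, with a median log2 ratio of 1.10. Their summed level was 10960 to 18125 CPM in chondrocytes and 5926 to 8824 in the other cells. The part of this difference in the levels of the 10 genes was not tested.

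**Figure D2:**
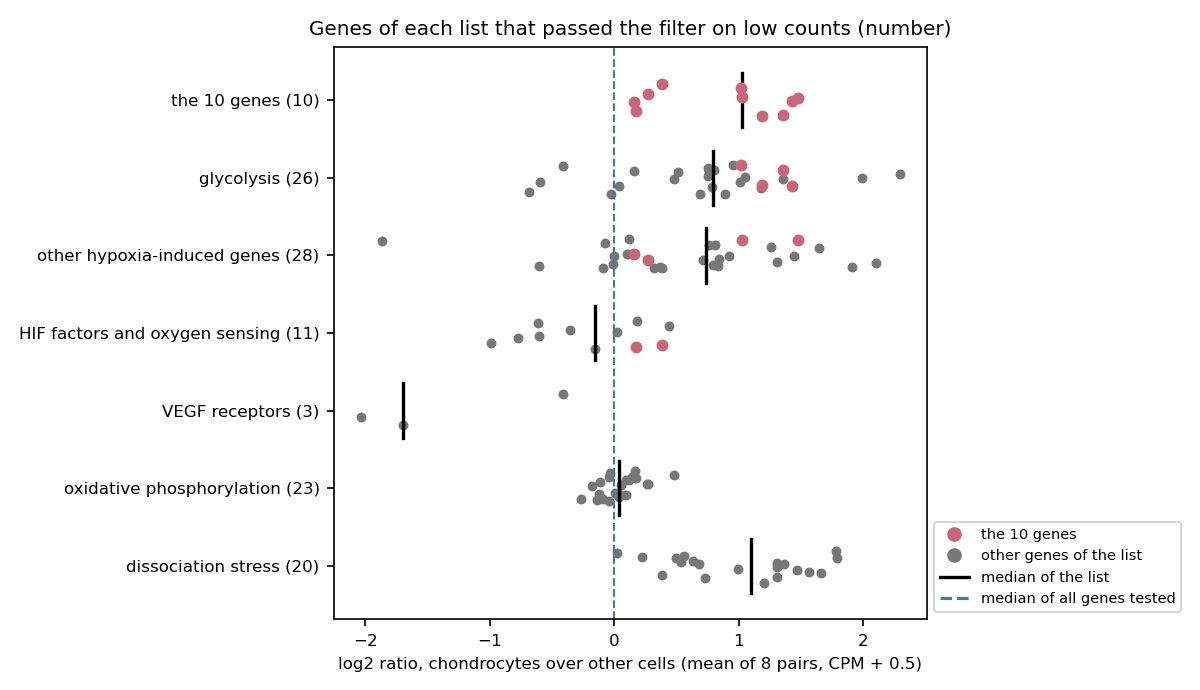
Log2 ratio of chondrocytes to other cells (horizontal axis, mean of 8 pairs) for the genes of each list that passed the filter, 1 point per gene with the median of the list, beside the median of all genes tested. Glycolysis, hypoxia-induced and dissociation stress genes centre to the right of 0, at 0.79, 0.74 and 1.10, and oxidative phosphorylation at 0.04.

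The chondrocyte-like clusters were then divided by zone markers. Resting-like cells numbered 319, proliferative-like 349 and hypertrophic-like 80, and 318 chondrocytes, led by *Sorbs2os* and *Lrp1b*, were given no zone. Their cluster had 5 of 6 resting and 3 of 6 proliferative markers raised. None of these was among its 20 leading genes, which a zone name required. Hypertrophic-like cells were 2, 18, 13 and 47 in S1 to S4, so S1 is left out for them. Among the other cells, 150 were interzone-like, from the future joint, and 194 perichondrium-like, from the sheath around the cartilage.

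Between resting and perichondrium-like cells, 8 of the 10 genes were higher in the resting cells in 4 of 4 libraries. *Pgk1* was 639, 757, 621 and 774 CPM in resting cells of S1 to S4 and 189.7, 239, 167 and 197 CPM in the perichondrium, a mean log2 ratio of 1.82 ± 0.14 (SD, n = 4). *Bnip3* stood at 1.69 ± 0.32, *Aldoa* at 1.55 ± 0.28, *Ldha* at 1.52 ± 0.25 and *Slc2a1* at 1.28 ± 0.52. *Vegfa* (0.52 ± 0.37) and *Hif1a* (0.39 ± 0.04) were higher by less. *Ndufa4l2* was 65.4 ± 28.4 CPM in resting cells and 11.5 ± 14.1 in the perichondrium, where S2 alone held 32.4 CPM and the other 3 libraries 2.71 to 6.39. *Egln3* and *Ankrd37* were higher in 3 of 4 libraries. Of 14639 genes, 20.8% were higher in resting cells in all 4 libraries. The dissociation genes moved the same way, 19 of 20 higher in every library with a median of 1.28, and their part was not tested.

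Interzone-like cells, which are counted among the other cells above, had levels much like those of resting chondrocytes for the glycolytic genes. *Pgk1* was 620 ± 107 CPM there (n = 4 libraries) and 698 ± 79.0 in resting cells, and the direction differed between libraries. *Ldha* (1091 ± 134 against 1182 ± 89.4 CPM), *Aldoa* (571 ± 53.0 against 576 ± 28.5) and *Slc2a1* (103 ± 20.1 against 117 ± 19.5) also differed by less than or about the spread between libraries. Another 4 genes were higher in interzone-like than in resting cells in 4 of 4 libraries. *Ndufa4l2* was 263, 196, 416 and 225 CPM in the interzone-like cells of S1 to S4 and 29.2, 86.0, 56.4 and 90.1 in resting cells, a log2 ratio of 2.13 ± 1.02. *Ndufa4l2* was also among the leading genes of that cluster. *Vegfa* was 151 ± 25.8 CPM there against 80.5 ± 8.97 (0.89 ± 0.39 on the log2 scale), its highest level in any named class. *Egln3* (0.47 ± 0.25) and *Hif1a* (0.39 ± 0.20) completed the 4. Of all genes, 14.53% were higher and 20.2% lower in interzone-like cells in all 4 libraries, and 0 of the 10 were lower in all 4. Of 23 oxidative phosphorylation genes, 22 were lower in interzone-like than in resting cells in every library, with a median of -0.46.

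From resting to proliferative-like cells, *Pgk1*, *Ldha*, *Aldoa* and *Bnip3* were higher in 4 of 4 libraries. *Pgk1* was 1084, 1292, 866 and 1136 CPM in proliferative-like cells of S1 to S4, a log2 ratio of 0.64 ± 0.15 over resting cells. *Ldha* was 1815 ± 289.5 CPM (0.61 ± 0.18), *Aldoa* 841 ± 196 (0.52 ± 0.31) and *Bnip3* 186 ± 37.7 (0.51 ± 0.22). *Slc2a1* was higher in 3 of 4 (0.42 ± 0.38), and *Egln3* was lower in 4 of 4 (-0.77 ± 0.82, from 54 and 65 UMIs). *Vegfa* (-0.10 ± 0.19), *Hif1a* (-0.14 ± 0.34), *Ankrd37* (-0.06 ± 0.48) and *Ndufa4l2* (0.24 ± 0.83) showed no common direction. Of 14639 genes, 23.3% were higher and 16.5% lower in proliferative-like cells in all 4 libraries, so 4 of 10 and 1 of 10 are to be read against those shares. The count of 4 genes depended on the cell filters and the clustering. It was 2 with barcodes from 2000 UMIs, 0 without the doublet filter, 5 at a finer clustering, 3 in control cells alone and 4 without the deepest cluster. Oxidative phosphorylation genes were also higher in proliferative-like cells, 17 of 23 in every library with a median of 0.51, and the dissociation genes reached their highest sum there, 15232 to 16665 CPM. Their part in the zone differences was not tested.

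In hypertrophic-like cells *Bnip3* was 245, 309 and 317 CPM in S2, S3 and S4, its highest level in any named class. It was higher than in resting cells in 3 of 3 libraries (log2 ratio 1.16 ± 0.27) and higher than in proliferative-like cells in 3 of 3 (0.62 ± 0.49). *Slc2a1* was 178, 223 and 179 CPM, above resting cells in 3 of 3 (0.65 ± 0.32). *Pgk1*, *Ldha* and *Aldoa* were higher than in resting cells in S3 and S4 and lower in S2. *Vegfa* was 86.0 ± 6.70 CPM, against 80.5 ± 8.97 in resting cells, a log2 ratio of 0.02 ± 0.09. *Egln3* had 3 UMIs in all of these cells, too few for a ratio. Of all genes, 17% were above and 26.4% below resting cells in 3 of 3 libraries, against 2 and 2 of the 10 (*Egln3* and *Ankrd37* below), and 10.5% were above proliferative-like cells, against 1 of the 10.

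**Figure D3:**
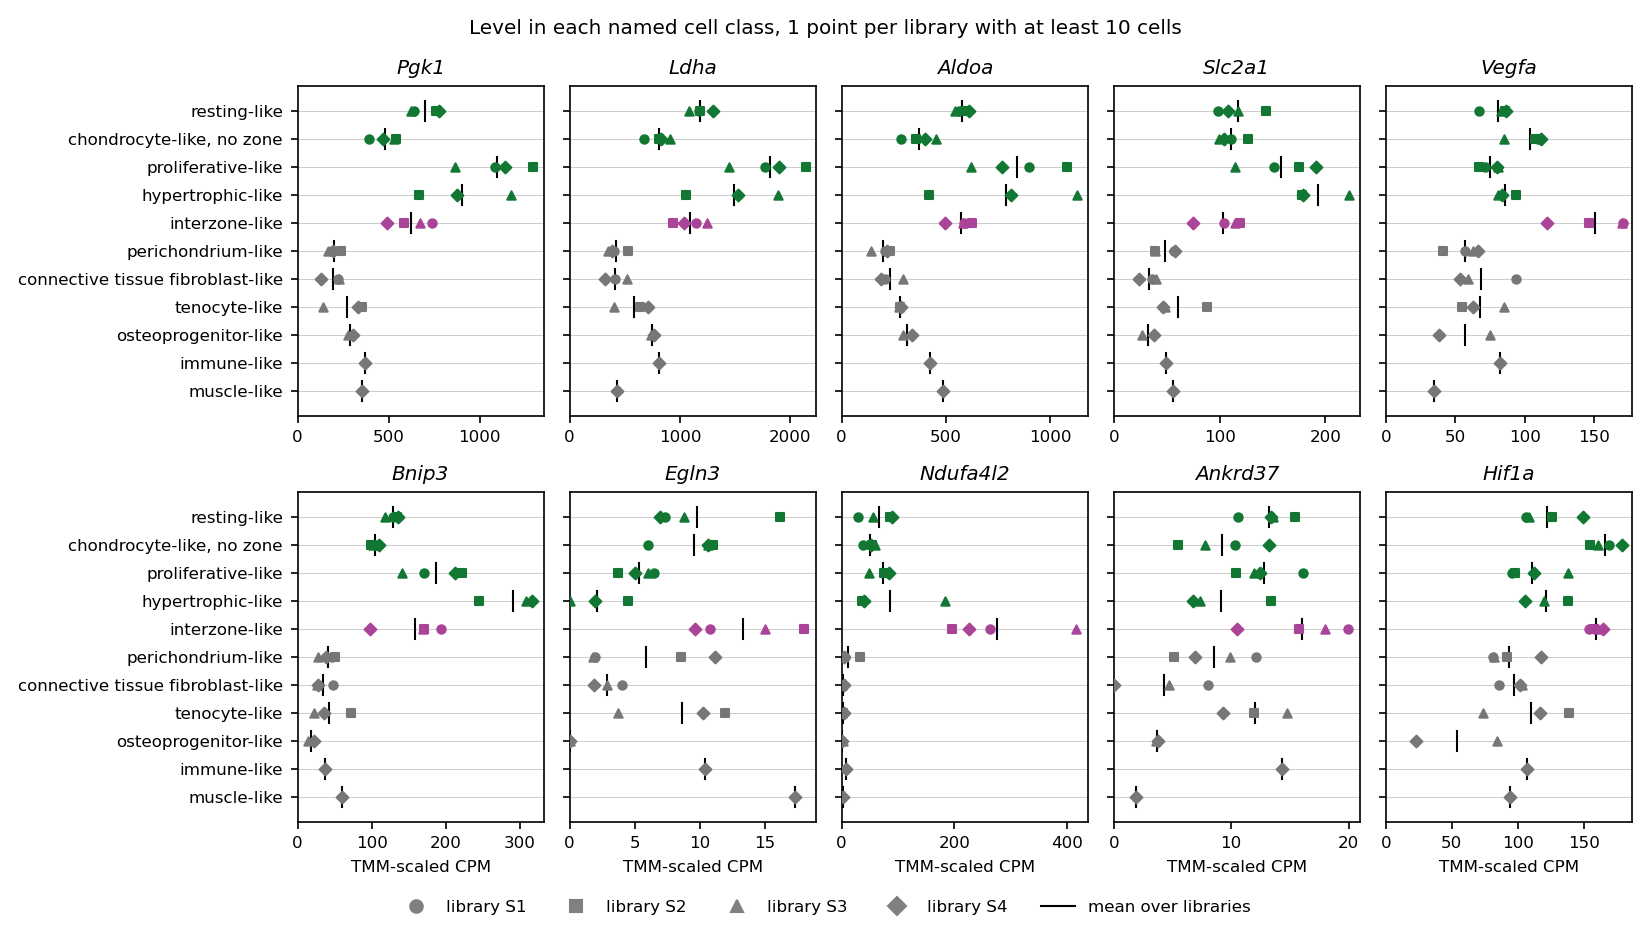
Level of each of the 10 genes (CPM, linear axis from 0) in the named cell classes, 1 point per library with at least 10 cells of the class and the mean as a line (chondrocytes green, interzone-like cells purple, others grey). *Pgk1*, *Ldha* and *Aldoa* have their highest means in proliferative-like cells, *Bnip3* and *Slc2a1* in hypertrophic-like cells, and *Ndufa4l2* and *Vegfa* in interzone-like cells.

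Ordered over the named classes, *Pgk1* ran from proliferative-like (1095 ± 176 CPM) through hypertrophic-like (903 ± 253), resting (698 ± 79.0) and interzone-like cells (620 ± 107) to chondrocytes without a zone (482 ± 68.6), and neighbours among these 5 overlapped between libraries. The *Pgk1* values of tenocyte-like (274 ± 116, n = 3), perichondrium-like (198 ± 29.9) and connective tissue fibroblast-like cells (194 ± 54.7, n = 3) lay below all of them. The first 4 classes had the same order for *Ldha* and *Aldoa*, but chondrocytes without a zone did not stand above all the rest. *Ldha* was 807 ± 95.5 CPM in them and 815 in immune-like cells (1 library). *Aldoa* was 372 ± 70.1 CPM in them, 487 in muscle-like and 424 in immune-like cells (1 library each). In chondrocytes without a zone the 10 genes did not share a direction against resting cells: *Pgk1*, *Ldha*, *Aldoa*, *Bnip3* and *Ankrd37* were lower there in 4 of 4 libraries, whereas *Vegfa* (0.36 ± 0.27) and *Hif1a* (0.45 ± 0.20) were higher in 4 of 4. Of all genes 22.9% were higher and 22.9% lower in every library, so 2 of 10 higher is near that share. Oxidative phosphorylation genes were also lower in chondrocytes without a zone, 22 of 23 in every library with a median of -0.65. Of 26 glycolysis genes 14 were lower and 3 higher in every library. Outside the named classes, 1 unnamed cluster of 57 cells led by *Pcp4*, *Cnn1* and *Tbx18* held *Ldha* at 1356 ± 155 CPM and *Pgk1* at 602 ± 83.6 (n = 3 libraries), levels within the range of the cartilage. *Vegfa* there was 46.9 ± 10.8 CPM. Of the unnamed clusters with at least 10 cells in S4 alone, some also reached such *Pgk1* levels, at 579 (12 cells), 647 (15) and 559 CPM (12). The others held 413, 314 and 324 CPM. The last of these, led by *Cdh5* and with 6 of 6 endothelial markers raised, held *Slc2a1* at 122 CPM (14 cells). *Slc2a1* in resting cells was 117 ± 19.5 CPM.

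Over the 20 clusters of at least 30 cells, chondrocyte clusters included, Pearson's r of log2(CPM + 1) was between 0.707 and 0.962 for the 10 pairs of the 5 genes with no overlap between classes, a choice of genes that itself favours high values. *Ndufa4l2*, whose groups overlapped, had an r of 0.733 with *Pgk1* and 0.719 with *Bnip3*. *Vegfa* went with *Hif1a* (r = 0.846) and with none of the glycolytic genes (r = 0.104 with *Pgk1*, 0.0652 with *Ldha* and -0.0933 with *Aldoa*). These are descriptions over clusters that share libraries, and depth differs between clusters. Among 10595 genes outside the lists, the pattern most like that of *Slc2a1* was shown by *Nog*, the BMP antagonist (0.940), which was also the most like that of *Bnip3* (0.892). For *Pgk1* it was *Gadd45b* (0.890) and for *Ldha* *Galk1*, encoding galactokinase (0.916). *Sar1b* was most like *Aldoa* (0.909), *Crim1* most like *Vegfa* (0.886), *Cc2d1b* most like *Hif1a* (0.907) and *Kcns1* most like *Ndufa4l2* (0.839). *Egln3* (*Ppp1r12c*, 0.785) and *Ankrd37* (*Mlf1*, 0.815) had the lowest maxima.

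The last comparisons ask whether arrest of part of the cartilage by p21 went with a change in these genes. In chondrocytes WPRE, an RNA-stabilising element built into transgenes, was 1239, 979, 1817 and 1381 CPM in Pan-Cart-p21MOE cells of S1 to S4 and 756, 122, 441 and 84.6 in control cells, with no overlap. Its log2 fold change was 2.40 (SE 0.39, edgeR quasi-likelihood test, adjusted p = 0.0194). Among the control cells the tdT+ values were the higher ones, and which transgene their WPRE counts came from cannot be told apart. *Cdkn1a*, which encodes p21, overlapped (log2 fold change 0.38, SE 0.29, adjusted p = 0.748, edgeR). The paper states that reads of the p21 and tdTomato transgenes fall mostly on WPRE in this method. *Cdkn1a* counts may therefore miss the transgene. Of 12119 genes tested, 50 were called, 13 higher and 37 lower in Pan-Cart-p21MOE, which is 0.413%. That count was 17 without the Pan-Cart-p21MOE cells of S3, 19 without those of S4 and 29 without those of S2, 26 without the control cells of S1 and 33 without those of S3, and 3 without the deepest cluster.

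None of the 10 genes passed the test, in edgeR or with DESeq2 or limma voom. In edgeR 0 of 10 had an unadjusted p under 0.05, against 1149 of all 12119 genes tested. *Pgk1* was 677, 603, 685 and 828 CPM in Pan-Cart-p21MOE chondrocytes of S1 to S4 and 763, 925, 632 and 825 in control chondrocytes, a log2 fold change of -0.16 (95% interval -0.40 to 0.08, adjusted p = 0.719, edgeR). *Ldha* was 1194, 1177, 1201 and 1451 CPM against 1253, 1423, 951 and 1276, a log2 fold change of 0.04 (-0.18 to 0.26). The groups overlapped for both genes, and the direction differed between libraries. *Aldoa* had a log2 fold change of 0.00 (-0.25 to 0.25), *Slc2a1* -0.15 (-0.39 to 0.09) and *Bnip3* 0.09 (-0.23 to 0.40). The outermost bounds among these 5 genes were those of *Pgk1* below 0 and of *Bnip3* above 0. The fitted sign of *Ldha*, *Aldoa*, *Bnip3* and *Egln3* turned under at least 1 alternative.

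*Hif1a* was 137, 131, 137 and 127 CPM in Pan-Cart-p21MOE chondrocytes and 96.6, 115, 125 and 135 in controls, a log2 fold change of 0.17 (-0.07 to 0.41, adjusted p = 0.711, edgeR). It was higher in 3 of 4 libraries. *Vegfa* was 81.7, 68.0, 85.0 and 91.0 CPM against 73.9, 85.5, 69.0 and 72.6, a log2 fold change of 0.14 (-0.12 to 0.40). Of the 10 genes *Ankrd37* had the largest fold change, at -0.43 (-0.98 to 0.11, adjusted p = 0.652, edgeR), from 8.90, 4.46, 8.75 and 12.3 CPM against 14.7, 12.6, 14.45 and 10.3. It was lower in 3 of 4 libraries and its groups overlapped. *Ndufa4l2* stood at -0.18 (-0.57 to 0.20), and *Egln3* at 0.07 (-0.59 to 0.73), an interval too wide to bound a change of moderate size.

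In the other cells 1 of 13666 genes was called (0.00732%), which was none of the 10. Again 0 of 10 had an unadjusted p under 0.05 (edgeR), against 799 of all genes. WPRE was higher in Pan-Cart-p21MOE in 4 of 4 libraries there too, with overlapping groups (log2 fold change 0.70, unadjusted p = 0.0052, adjusted p = 0.77, edgeR), and *Col2a1* was 677 to 1336 CPM. These cells include the unnamed clusters with chondrocyte markers, whose part in both levels was not tested. The log2 fold changes of the 10 genes lay between -0.27 for *Ankrd37* and 0.06 for *Slc2a1*. *Ndufa4l2* was 15.2, 15.6, 48.9 and 27.6 CPM in Pan-Cart-p21MOE cells and 35.2, 59.9, 28.0 and 19.4 in controls, so that its interval was wide (-0.26, from -1.14 to 0.61, edgeR).

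**Figure D4:**
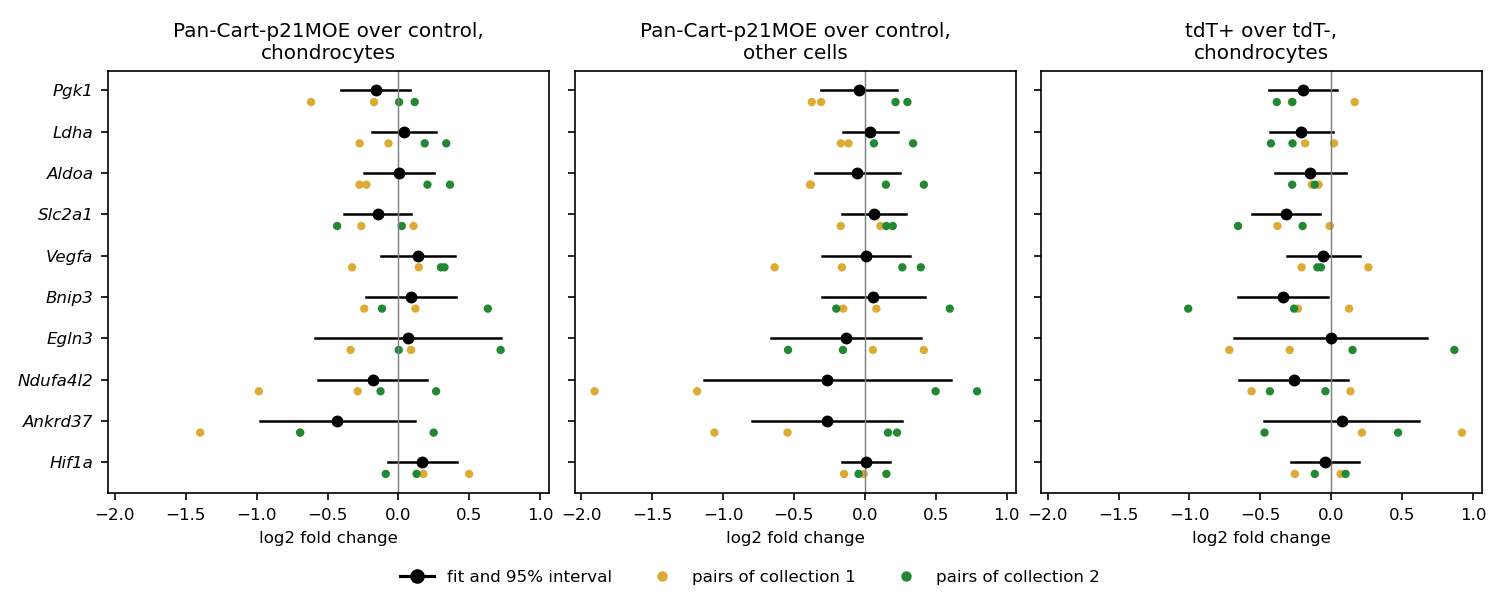
Fitted log2 fold change of the 10 genes with its 95% interval (edgeR) for Pan-Cart-p21MOE over control in chondrocytes, the same in the other cells, and tdT+ over tdT- in chondrocytes, with the log2 ratio within each of the 4 pairs as small points coloured by collection. All intervals of the first 2 comparisons cross 0, and those of *Slc2a1* and *Bnip3* in the third lie below 0 without passing the adjusted threshold.

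No gene of the pathway lists was called in these fits. In chondrocytes 2 of 26 glycolysis genes had an unadjusted p under 0.05 (edgeR), against 1149 of all 12119 genes. The 2 were *Aldoc* (log2 fold change 0.43) and *Eno1*, encoding enolase (-0.23), in opposite directions. The median of the list was 0.01 as for all genes. The list of hypoxia-induced genes had a median of -0.02 and that of oxidative phosphorylation 0.01. An unadjusted p under 0.05 was also given by *Cox4i2* (0.47, adjusted p = 0.255, edgeR), *Mxi1* (0.51, adjusted p = 0.355, edgeR), *Egln1*, the main HIF prolyl hydroxylase gene (-0.35, adjusted p = 0.264, edgeR), and *Nrp2* (-0.34, adjusted p = 0.515, edgeR). The dissociation genes had a median of -0.28, with a summed level of 10960 to 13438 CPM in Pan-Cart-p21MOE and 13347 to 18125 in control chondrocytes. Their part in the fold changes of the 10 genes was not tested.

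Within libraries, the difference between conditions followed collection for some of the genes, which is the same as following sex, because the sexes were exchanged between the collections. In chondrocytes *Pgk1*, *Ldha* and *Aldoa* were higher in female than in male cells in 4 of 4 libraries, by 0.23 ± 0.27, 0.22 ± 0.12 and 0.27 ± 0.07 on the log2 scale. Among all 12673 genes, 10.9% were higher and 9.33% lower in female cells in all 4. In the other cells *Pgk1* (0.30 ± 0.06), *Ldha* (0.17 ± 0.12), *Aldoa* (0.33 ± 0.12), *Vegfa* (0.36 ± 0.20), *Ndufa4l2* (1.09 ± 0.61) and *Ankrd37* (0.50 ± 0.41) were higher and *Egln3* (-0.29 ± 0.22) lower, against 9.27% and 8.77% of all genes. *Pgk1* is X-linked. Each sex of a collection is 1 embryo pool of 1 condition, so sex, pool and condition cannot be told apart within a library. With sex added to the model, 126 genes were called in chondrocytes and 1 in the other cells, and 0 of the 10 genes in either.

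Between the sorted fractions, 9 of the 10 genes had a lower fitted level in tdT+ than in tdT- chondrocytes, of which *Vegfa*, *Egln3*, *Ndufa4l2* and *Hif1a* turned sign under at least 1 alternative, and 0 of 10 passed the test. Of 12119 genes 6045 had a higher fitted level in tdT+, and 2 were called (0.0165%). An unadjusted p under 0.05 (edgeR) was given by 672 of all genes and 2 of the 10. Of 20 dissociation genes 2 were higher in tdT+, with a median log2 fold change of -0.12, and their part was not tested. Both fractions of a pool were sorted from the same embryos, and with the embryo pool as a block 19 genes were called, again 0 of the 10. *Slc2a1* was 117, 126, 112 and 114 CPM in tdT+ chondrocytes (S1 control, S1 Pan-Cart-p21MOE, S3 control, S3 Pan-Cart-p21MOE) and 153, 127, 177 and 131 in the tdT- cells of the same pools, with no overlap. Its log2 fold change was -0.32 (-0.56 to -0.08, unadjusted p = 0.0134, adjusted p = 0.747, edgeR), and it was lower in 4 of 4 pools. *Bnip3* was 138, 149.8, 90.4 and 140.3 CPM against 162, 137, 182 and 168, a log2 fold change of -0.34 (-0.66 to -0.03, adjusted p = 0.872, edgeR), lower in 3 of 4 pools and with overlap. *Aldoa*, lower in 4 of 4 pools, was -0.15 (-0.40 to 0.10). *Col2a1* was lower as well, at -0.31 and without overlap (adjusted p = 0.495, edgeR). The zone make-up of the chondrocytes also differed between fractions. Cells without a zone were 47 of 147 in S1 and 117 of 289 in S3, against 40 of 203 in S2 and 114 of 427 in S4. Hypertrophic-like cells were 2 and 13 against 18 and 47, and proliferative-like cells 53 and 61 against 68 and 167. The part of this make-up in the fold changes was not tested.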

How the data were processed

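Single-cell RNA was measured in 4 libraries. The authors aligned reads with Cell Ranger 7.2.0 to GRCm38 with tdt, CreERT2 and WPRE added, and deposited raw UMI counts per gene and barcode. Their CellBender and DoubletFinder steps were not visible in those counts. Barcodes were retained from 1000 UMIs and 500 genes, with a mitochondrial share of UMIs up to 10%. Sex, which gives the condition, was called from at least 2 UMIs of *Xist* or Y-linked genes with 80% of 1 side. Cells with both (175) and the top 5% of Scrublet scores per library were left out as likely doublets. Cells without a sex call were left out too, a loss that differed between libraries. They were 178 of 706 filtered barcodes in S1, 349 of 772 in S2, 455 of 1483 in S3 and 2747 of 3912 in S4. Cells were scaled to 10000 UMIs and clustered (scanpy 1.11.5, leidenalg 0.10.2, 2000 variable genes, 30 components, 15 neighbours, resolution 1), leaving out the genes described and cell cycle genes, and named from marker lists.

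Raw counts were summed per library, condition and class (921116 to 12027828 UMIs each) and tested in edgeR 4.0.16 (R 4.3.3): filterByExpr, TMM, glmQLFit and glmQLFTest with the sorted fraction, or for the fractions the condition, as the covariate, and Benjamini-Hochberg adjusted p at 0.05. P-values measure the spread between these sums, of which 2 share each embryo pool. Deviations of both fractions of a pool, paired by shared embryos, correlated at 0.266, 0.0762, 0.155 and 0.376 across genes. The scripts were checked on simulated counts. DESeq2 1.42.0, limma 3.58.1 voom, other filters, clusterings, blocks and left-out samples were alternatives. Classes and zones were only described. The genes named are the 10 genes, list genes past the threshold (up to 5 per list and fit), the 2 highest and 2 lowest per list in chondrocytes, the targeted genes, and per gene the most alike over clusters. Other genes named (cluster leaders, and those given for an unadjusted p) were picked after their values were seen. The 10 genes and the lists were chosen with earlier results of these data known.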

Additional observations from a re-analysis of the deposited data

Results flagged for a closer look

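Of 90 groups of 4 values over the 10 genes, 4 held a value far from the other 3, and chance flags about 1 group in 20. *Ldha* was 1451 CPM in Pan-Cart-p21MOE chondrocytes of S4, above 1177 to 1201 in the other 3 libraries. *Vegfa* in chondrocytes without a zone was 85.0 CPM in S3, below 107 to 112. *Egln3* in the same class was 6.03 CPM in S1, below at least 10.6 in the other 3. *Ndufa4l2* in perichondrium-like cells was 32.4 CPM in S2, above 2.71 to 6.39.

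The difference between Pan-Cart-p21MOE and control had opposite signs in both libraries of 1 collection and both of the other for several genes, and the difference between collections was not tested. Mean log2 ratios for collection 1 and collection 2 in chondrocytes were -0.39 and 0.06 for *Pgk1*, -0.17 and 0.26 for *Ldha*, and -0.25 and 0.28 for *Aldoa*. In the other cells they were -0.34 and 0.26 for *Pgk1*, -0.14 and 0.20 for *Ldha*, -0.38 and 0.28 for *Aldoa*, and -0.40 and 0.33 for *Vegfa*. There they were 0.24 and -0.35 for *Egln3*, -1.54 and 0.65 for *Ndufa4l2*, and -0.80 and 0.20 for *Ankrd37*. Sex was exchanged between the collections, so sex, embryo pool and collection cannot be told apart here.

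In chondrocytes the same difference had opposite signs in the tdT+ and tdT- libraries for *Slc2a1* (0.065 and -0.35) and *Bnip3* (0.38 and -0.18), also untested.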

How the results depend on the processing

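None of the 10 genes was called in any fit under any alternative run. The count of genes called over the whole table moved more. For Pan-Cart-p21MOE against control in chondrocytes it was 50, and it became 130 with DESeq2, 434 with no filter on low counts, 25 with no Scrublet filter, 25 with the fractions of a pool summed and 17 to 62 when 1 sample was left out. With the library as the replicate block it was 31. Of the alternatives chosen after seeing the data, sex as a covariate gave 126 and leaving out the deepest cluster 3. In the other cells the count was 1, and it was 5 with DESeq2, 300 with no filter on low counts, 2 with the library as the replicate block, 2 with barcodes from 2000 UMIs, 0 with no covariate, 0 with the fractions summed, 0 without clusters of mostly 1 library (chosen after seeing the data) and 1 to 3 with 1 sample left out. Between fractions it was 2, and it was 12 with DESeq2, 195 with no filter, 19 with the embryo pool as the replicate block, 1 with barcodes from 2000 UMIs and 1 to 7 with 1 sample left out. The cause of these shifts was not tested. The library block rests on cells processed together, whose deviations correlated at -0.0639 to 0.0637 in chondrocytes and 0.0273 to 0.243 in the other cells. Over the 10 genes it turned no sign in either fit.

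The signs of small, uncalled fold changes turned in places (log2 scale). In chondrocytes, p21 against control, *Aldoa* became -0.001 with no filter on low counts, -0.008 at Leiden resolution 2 and -0.031 with fractions summed. With barcodes from 2000 UMIs *Ldha* was -0.015, *Aldoa* -0.038 and *Egln3* -0.128, and with no Scrublet filter *Aldoa* was -0.012 and *Egln3* -0.036. With 1 sample left out *Ldha* ran from -0.052 to 0.107, *Aldoa* from -0.095 to 0.084, *Bnip3* from -0.069 to 0.175 and *Egln3* from -0.152 to 0.362. In the other cells *Vegfa* was -0.004 with DESeq2, -0.011 with sex added, -0.024 with barcodes from 2000 UMIs, -0.008 with no Scrublet filter, -0.039 at resolution 2 and -0.036 without clusters of mostly 1 library. *Slc2a1* was -0.012, -0.092 and -0.131 with barcodes from 2000 UMIs, with no Scrublet filter and at resolution 2. *Bnip3* was -0.012 with barcodes from 2000 UMIs and -0.078 with no Scrublet filter, and *Ldha* -0.044 with no Scrublet filter and -0.001 at resolution 2. *Hif1a* was -0.006 with barcodes from 2000 UMIs, -0.013 at resolution 2 and -0.024 without clusters of mostly 1 library. With 1 sample left out *Pgk1* ran from -0.129 to 0.075, *Ldha* from -0.044 to 0.089, *Aldoa* from -0.163 to 0.079, *Vegfa* from -0.087 to 0.13, *Bnip3* from -0.1 to 0.204, *Egln3* from -0.24 to 0.087, *Ndufa4l2* from -0.831 to 0.148 and *Hif1a* from -0.038 to 0.045.

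Between fractions *Egln3* was 0.091 with limma voom, 0.032 with the embryo pool as a block, 0.407 with barcodes from 2000 UMIs, 0.071 with no Scrublet filter and 0.313 at resolution 2. *Vegfa* was 0.033 and *Ndufa4l2* 0.023 with barcodes from 2000 UMIs, and *Hif1a* was 0.005 at resolution 2. With 1 sample left out *Vegfa* ran from -0.129 to 0.012, *Egln3* from -0.209 to 0.268, *Ankrd37* from -0.049 to 0.48 and *Hif1a* from -0.09 to 0.05. For chondrocytes against other cells the 5 genes with no overlap were 5 or 6 under each alternative, and only *Ankrd37* turned sign, to -0.062 at resolution 2. For proliferative-like over resting-like cells the 4 genes became 2 with barcodes from 2000 UMIs and 0 with no Scrublet filter. There *Ndufa4l2* was -0.736, -0.858 and -0.027 with barcodes from 2000 UMIs, no Scrublet filter and resolution 2. *Vegfa* was 0.118 at resolution 2, *Egln3* 0.249 in control cells and *Ankrd37* 0.422 without the deepest cluster.

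Precision was limited by 2 embryo pools per condition and, for *Egln3* and *Ankrd37*, by few UMIs. On simulated counts with 200 genes changed by 1 on the log2 scale, 74.5% were recovered for p21 in chondrocytes, 67% in the other cells and 74.5% between fractions, with 9.15%, 6.94% and 7.45% of calls false. Each sum was drawn independently in these counts, without an embryo pool shared by 2 sums. The rates therefore do not describe a design of 2 pools per condition. Smaller changes, of the size fitted here, were not simulated.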
